A study of Rattus norvegicus with 30 samples.

Results

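Angptl4, Lpl, Vldlr, Cd36, Fabp3, Dgat2, Plin2, Plin5 and Pnpla2 encode proteins that act on or regulate the uptake of fatty acids from circulating fat, or their storage and release inside heart cells. They were chosen by gene symbol in the probe annotation of the array, which gave 14 probe sets of 31042 that are not controls, for 9 genes of 14218. All 14 passed the filter on dim probe sets, which kept 24292 probe sets and 12451 genes. Another probe set, 1386901_at, is annotated to both Cd36l1 and Cd36 and was not used.

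Hearts of male Crl:WI(Han) rats, the Wistar Han outbred stock, were collected after a single dose of isoproterenol, which is a man-made catecholamine and agonist of beta-adrenergic receptors, or of vehicle. Isoproterenol groups had 5, 4, 4 and 5 arrays at 1, 3, 24 and 72 h, and vehicle groups had 3 arrays at each time. The labels write the dose as 0.5 mg/kg/ml and the design text as 0.5 mg, and neither settles the amount per body weight. The labels' last time of 72 h is used although the design text has 48 h. The sources used here do not give the rats' age, the vehicle's composition or the route. Each array measured total RNA of whole heart tissue and its title calls it a biological replicate. The labels do not say that each came from its own animal, and where animals were shared the p-values cover only the spread between samples.

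Heart muscle burns mostly fatty acids. Lipoprotein lipase, encoded by Lpl, releases them from circulating triglyceride at the capillary wall, and Angptl4 is a secreted protein that inactivates this enzyme. Vldlr is a receptor that binds triglyceride-rich lipoproteins, Cd36 is a membrane protein that takes up long-chain fatty acids, and Fabp3 is the fatty acid binding protein of the heart cell's cytoplasm. Surplus fatty acid is esterified by enzymes that include Dgat2, kept in droplets coated by Plin2 and Plin5, and released by Pnpla2, the adipose triglyceride lipase. Beta-adrenergic agonists are known to stimulate lipolysis in fat tissue, and circulating lipids were not measured here.

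The regions upstream of the genes that moved most are shown here because the probe sets report only the amount of transcript. RefSeq promoter windows of build GRCr8, from 250 bases before to 50 bases after a listed gene start, were given for 7 of the 9 genes; Lpl and Dgat2 are named only. Each is written 5′ to 3′ on the gene's strand, with any match to a searched motif in capitals. The Angptl4 window is chr7:15258632-15258931, minus strand, and the Cd36 window is chr4:18246332-18246631, plus strand. The Plin5 window is chr9:1033235-1033534, minus strand. Plin2 has 2 listed starts on the minus strand, with windows chr5:106228969-106229268 (start 1) and chr5:106228488-106228787 (start 2). The gene records span chr4:18209088-18302142 for Cd36, chr5:106202634-106258748 for Plin2 and chr7:15252450-15259971 for Angptl4. The windows of these genes lie inside those spans, so any start further upstream was not searched.
Angptl4: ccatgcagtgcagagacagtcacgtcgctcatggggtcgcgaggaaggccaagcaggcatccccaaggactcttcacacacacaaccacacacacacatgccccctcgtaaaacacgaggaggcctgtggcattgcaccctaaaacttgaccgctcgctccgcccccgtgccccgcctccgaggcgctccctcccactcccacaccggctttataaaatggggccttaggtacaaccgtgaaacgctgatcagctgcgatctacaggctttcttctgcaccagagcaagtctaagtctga
Cd36: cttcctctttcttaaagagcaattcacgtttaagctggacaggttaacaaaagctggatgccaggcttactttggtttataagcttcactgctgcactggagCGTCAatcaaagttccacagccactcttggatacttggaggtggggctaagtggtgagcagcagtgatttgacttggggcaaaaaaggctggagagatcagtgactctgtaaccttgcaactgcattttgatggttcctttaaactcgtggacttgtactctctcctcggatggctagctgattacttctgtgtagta
Plin5: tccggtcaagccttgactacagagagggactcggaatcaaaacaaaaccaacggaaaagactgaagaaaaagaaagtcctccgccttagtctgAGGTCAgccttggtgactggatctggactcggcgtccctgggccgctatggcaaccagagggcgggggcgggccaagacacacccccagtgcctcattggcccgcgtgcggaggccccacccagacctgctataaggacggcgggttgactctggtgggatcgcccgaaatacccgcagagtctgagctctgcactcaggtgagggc
Plin2, start 1: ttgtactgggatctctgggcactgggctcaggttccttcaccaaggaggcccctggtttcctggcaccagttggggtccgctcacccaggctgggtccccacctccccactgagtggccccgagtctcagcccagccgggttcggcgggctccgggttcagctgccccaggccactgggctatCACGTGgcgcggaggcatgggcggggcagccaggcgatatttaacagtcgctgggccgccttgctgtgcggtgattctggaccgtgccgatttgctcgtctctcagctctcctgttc
Plin2, start 2: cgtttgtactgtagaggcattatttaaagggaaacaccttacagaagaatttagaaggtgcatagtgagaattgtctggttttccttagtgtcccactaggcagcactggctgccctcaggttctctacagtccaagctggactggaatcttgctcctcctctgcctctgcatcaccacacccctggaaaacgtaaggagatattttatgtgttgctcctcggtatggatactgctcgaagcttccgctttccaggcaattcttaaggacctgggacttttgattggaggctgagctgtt

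Motifs were searched as exact letters on both strands. The cAMP response element TGACGTCA, present in 1.83% of 33469 promoter windows, and the AP-1 site TGANTCA, present in 7.33%, were in none of the members' windows. The shorter TGACG, which lies within the cAMP response element and is present in 21.2% of windows, matched the Cd36 window at base -148 and the Fabp3 window at base -155, counted from the gene start. AGGTCA, the core of many nuclear receptor sites and present in 16.2% of windows, matched Plin5 at base -157, while its direct repeat with 1 base between, present in 0.0538%, matched none. The E-box CACGTG, present in 6.42%, matched the Plin2 window of start 1 at base -67. The Angptl4, Pnpla2 and Vldlr windows held none of the 6 motifs. A match is only a run of letters in the window.

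Deposited array medians lay between an intensity of 21.2 and 70.3, and correlations of normalized log2 values within a group lay between 0.943 and 0.985. Isoproterenol arrays carry numbers 33 to 62 and vehicle arrays 4 to 21, so treatment and array number cannot be told apart. Isoproterenol replicate 1 at 72 h stood apart from its group: its highest correlation with another 72 h isoproterenol array was 0.967, against 0.976 with an array of the 1 h vehicle group. Isoproterenol replicate 3 at 24 h was also about as close to another group (0.973, with that same 72 h array) as to its own (0.971). Other arrays did likewise. Each vehicle array at 3 and 24 h correlated best with an array of another group. So did vehicle replicates 1 (0.9761, against 0.9758 within its group) and 2 (0.973, against 0.963) at 72 h. Isoproterenol replicates 1, 3 and 4 at 3 h did too, by small margins, each with a 1 h isoproterenol array. For replicate 4 the values were 0.9626, against 0.9616 within its group. Called changes of the 9 genes are given with and without isoproterenol replicate 3 at 24 h and replicate 1 at 72 h. Both lay nearest the vehicle range for several genes, and leaving them out mostly enlarged the changes. Cardiomyocyte markers were bright in vehicle hearts, with Myh6 at a mean intensity of 10464, and of the adipocyte markers Adipoq, Plin1, Cidec, Lep and Pck1 lay at 4.45 to 18.3, below the filter's intensity of 23. Cfd, Pparg and Lipe, on the same list, lay at 53.5, 54.8 and 135.

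Levels below are log2(intensity + 16) after quantile normalization, which gives all arrays the same distribution of values. Changes are isoproterenol minus vehicle on that log2 scale ± SE, from limma fitted to all 30 arrays, and a gene is called where the Benjamini-Hochberg adjusted p over all tested probe sets is under 0.05. A gene with several probe sets is represented by the one that is brightest on average. At 1 h, 1 of the 9 genes was higher and none was lower, beside 3.41% of all genes called, 2.37% higher and 1.04% lower. At 3 h, 2 were higher and none lower, beside 13.3% of all genes, 6.94% higher and 6.33% lower. At 24 h, 1 was higher and 2 were lower, beside 17.2%, with 10% higher and 7.19% lower. At 72 h none was higher and 3 were lower, beside 22%, with 13.3% higher and 8.71% lower. The median change of the 9 genes was 0.04, 0.01, -0.23 and -0.30 at 1, 3, 24 and 72 h, and that of all genes was -0.03, -0.06, -0.01 and 0.01. The share of all genes whose isoproterenol and vehicle arrays did not overlap was 16%, 20.8%, 25.4% and 19.1% at these times, and 1, 3, 3 and 5 of the 9 genes did not overlap.

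**Figure D1:**
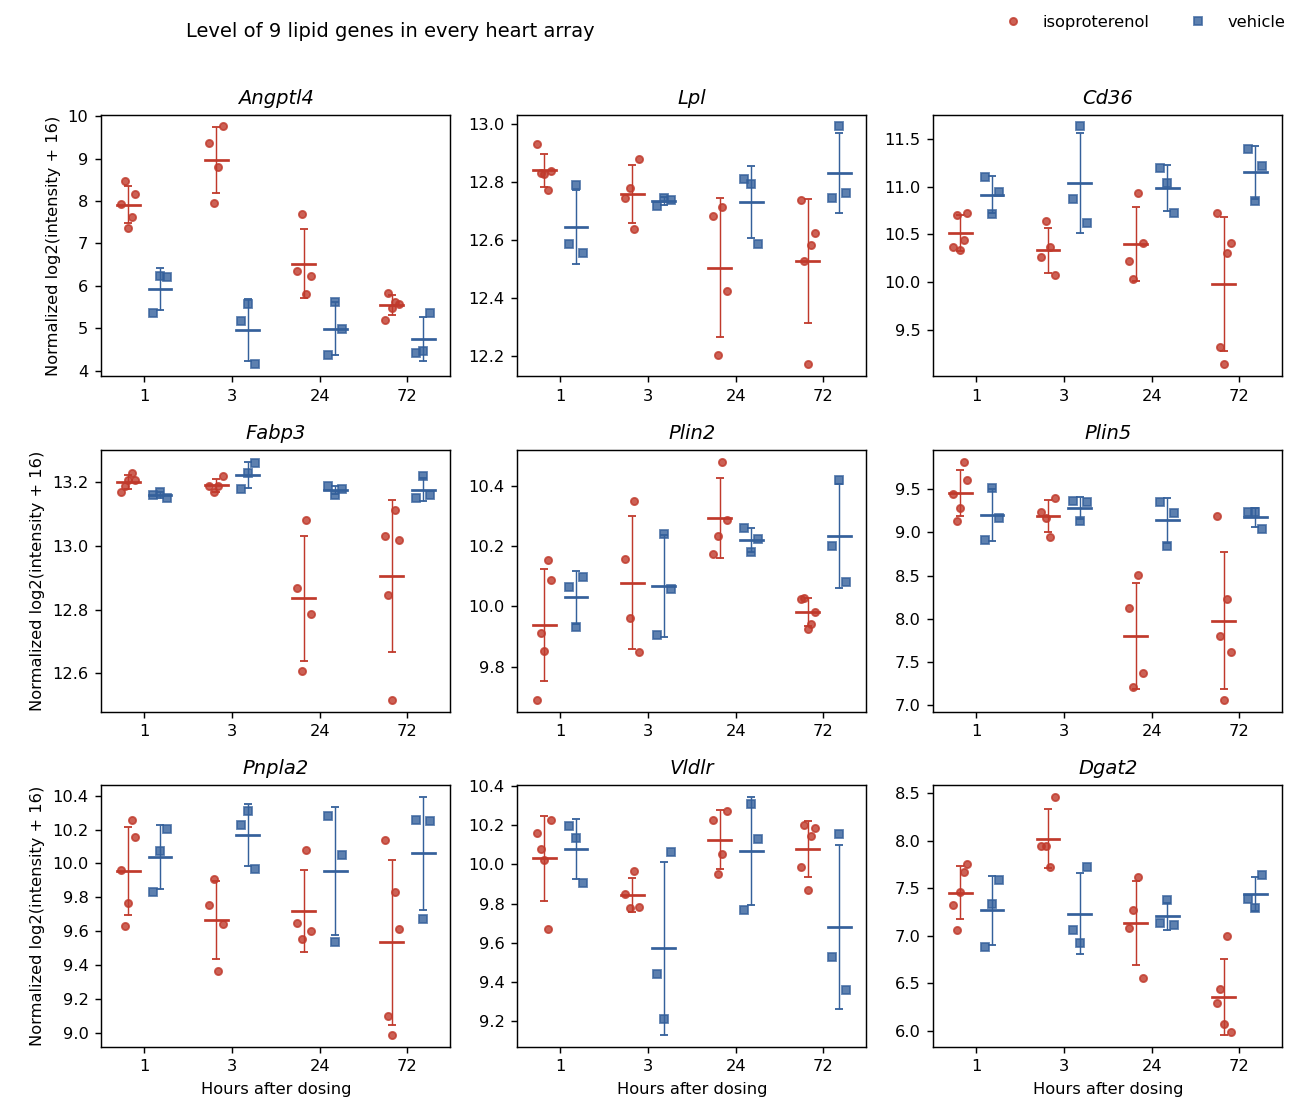
Normalized log2(intensity + 16) of the brightest probe set of each of the 9 genes (y axis) by hours after dosing (x axis), with 1 point per array, isoproterenol as red circles left of vehicle as blue squares, and horizontal lines and bars for the group mean and SD. Angptl4 is separated between the groups at 1, 3 and 24 h, while Plin5 and Cd36 lie lower in most late isoproterenol arrays.

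Angptl4, the secreted inhibitor of lipoprotein lipase, was the gene of this set that moved most. At 1 h its probe set 1388924_at stood at 7.93, 8.48, 7.37, 7.63 and 8.16 in isoproterenol hearts, against 5.36, 6.23 and 6.21 in vehicle hearts. At 3 h it stood at 9.37, 7.96, 8.80 and 9.76 in isoproterenol hearts, against 5.17, 5.58 and 4.15 in vehicle hearts. Every isoproterenol array lay above every vehicle array at both times. The change was 1.98 ± 0.38 at 1 h (limma adjusted p = 0.0013) and 4.01 ± 0.40 at 3 h (limma adjusted p = 1.34e-08). It was called under every other setting, but its size moved with the added constant: 1.40 and 2.78 with 64 added, and 2.25 and 4.85 with 4 added, at 1 and 3 h. The vehicle level was under the filter's intensity in 1 of 3 arrays at 1 h and in 2 of 3 at 3 h.

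At 24 h Angptl4 still stood at 6.35, 7.69, 5.80 and 6.24 in isoproterenol hearts, against 4.38, 5.62 and 4.98 in vehicle hearts, with no overlap. Of the vehicle arrays, 2 of 3 were under the filter's intensity. The change was 1.53 ± 0.40 (limma adjusted p = 0.0101), 0.83 with 64 added and 2.17 without normalization, each called. It was 1.77 without isoproterenol replicate 3 (adjusted p = 0.00275), and it lost its call without isoproterenol replicate 2 (1.13, adjusted p = 0.0753) or vehicle replicate 1 (1.22, adjusted p = 0.0809). At 72 h it stood at 5.2, 5.83, 5.49, 5.63 and 5.57 in isoproterenol hearts, against 4.42, 4.47 and 5.36 in vehicle hearts. The groups overlapped, and the change of 0.79 ± 0.38 did not pass (adjusted p = 0.160, 95% interval 0.01 to 1.58), though it passed with array weights (0.86, adjusted p = 0.044). All 3 vehicle arrays were under the filter's intensity there.

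The fall of the Angptl4 effect between 3 and 24 h was itself tested and passed: the effect at 24 h minus that at 3 h was -2.48 ± 0.57 (limma adjusted p = 0.00742), and without normalization -1.53 (adjusted p = 0.0974). It was the only 1 of the 9 genes called in that contrast, beside 8.33% of all genes. The effect at 3 h minus that at 1 h, 2.03 ± 0.55, did not pass (adjusted p = 0.0845), but passed without isoproterenol replicate 2 at 3 h (2.36, adjusted p = 0.0386) or with array weights (1.95, adjusted p = 0.0337). None of the 9 genes was called in that contrast, beside 0.731% of all genes, or for the effect at 72 h minus that at 24 h, beside 2.71%. Angptl4 is a dim probe set: the deposited intensity was between 24.5 and 842.9 in the isoproterenol arrays and between 1.9 and 73.4 in the vehicle arrays. The added constant understates changes at such levels, and no fold is given here.

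Lpl, the lipase that Angptl4 inactivates, differed little at its probe set 1386965_at. The changes at 1, 3 and 24 h were 0.20 ± 0.11, 0.03 ± 0.12 and -0.23 ± 0.12, none called (limma adjusted p = 0.512, 0.925 and 0.236). At 72 h it stood at 12.74, 12.53, 12.17, 12.58 and 12.62 in isoproterenol hearts, against 12.74, 12.99 and 12.76 in vehicle hearts. All isoproterenol arrays lay below the vehicle arrays, though the nearest values are equal after rounding. Lpl is very bright, and quantile normalization gives some of its arrays identical values, such as 12.74 in vehicle hearts at 3 and 72 h. The change at 72 h was -0.30 ± 0.11 (adjusted p = 0.0599), and -0.36 without isoproterenol replicate 1 (adjusted p = 0.0198). It was also called when arrays were centred on their medians (-0.50, adjusted p = 0.0176) or scaled by a trimmed mean (-0.46, adjusted p = 0.0125).

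Vldlr, the lipoprotein receptor, had 4 probe sets that did not move alike. The brightest, 1389611_at, changed by -0.05, 0.27, 0.06 and 0.40 at 1, 3, 24 and 72 h, with SE up to 0.18 and no call (lowest limma adjusted p = 0.109). Its 72 h change was called without vehicle replicate 2 (0.63, adjusted p = 0.0109), with median centring (0.55, adjusted p = 0.0441), trimmed mean scaling (0.59, adjusted p = 0.0263) and array weights (0.56, adjusted p = 0.00275). Probe set 1392924_at stood at 8.73, 8.18, 9.35 and 8.69 in isoproterenol hearts at 24 h, against 9.65, 9.88 and 9.69 in vehicle hearts. It was lower in every isoproterenol array, with a change of -0.998 ± 0.19 at 24 h (limma adjusted p = 0.000692). That change was -1.20 without isoproterenol replicate 3 (adjusted p = 1.38e-05) and -0.38 without normalization (adjusted p = 0.489). At 72 h it stood at 9.44, 8.79, 8.50, 8.96 and 8.95 in isoproterenol hearts, against 9.41, 9.78 and 9.40 in vehicle hearts. Those groups overlapped through isoproterenol replicate 1. The change of -0.60 ± 0.18 was called (adjusted p = 0.0191), but not without isoproterenol replicate 3 (-0.50, adjusted p = 0.0699) or vehicle replicate 2 (-0.48, adjusted p = 0.102). It was -0.73 without isoproterenol replicate 1 (adjusted p = 0.00211). The call was also lost with median centring (-0.38, adjusted p = 0.239), trimmed mean scaling (-0.34, adjusted p = 0.281), no normalization (-0.03, adjusted p = 0.968) and only the arrays compared (adjusted p = 0.0815).

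Probe set 1387455_a_at of Vldlr lay the other way at 24 h, at 9.66, 10.04, 9.70 and 10.03 in isoproterenol hearts, against 9.45, 9.53 and 9.50 in vehicle hearts. The groups did not overlap, but the change of 0.36 ± 0.13 did not pass (limma adjusted p = 0.0532). It passed without isoproterenol replicate 1 (0.43, adjusted p = 0.0385) or 3 (0.42, adjusted p = 0.0256). The last probe set, 1369098_at, changed by -0.01, -0.17, -0.04 and -0.08 at the 4 times, with no call. No direction for Vldlr as a gene can be read from these probe sets, and which transcript ends each probes is not used here.

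**Figure D2:**
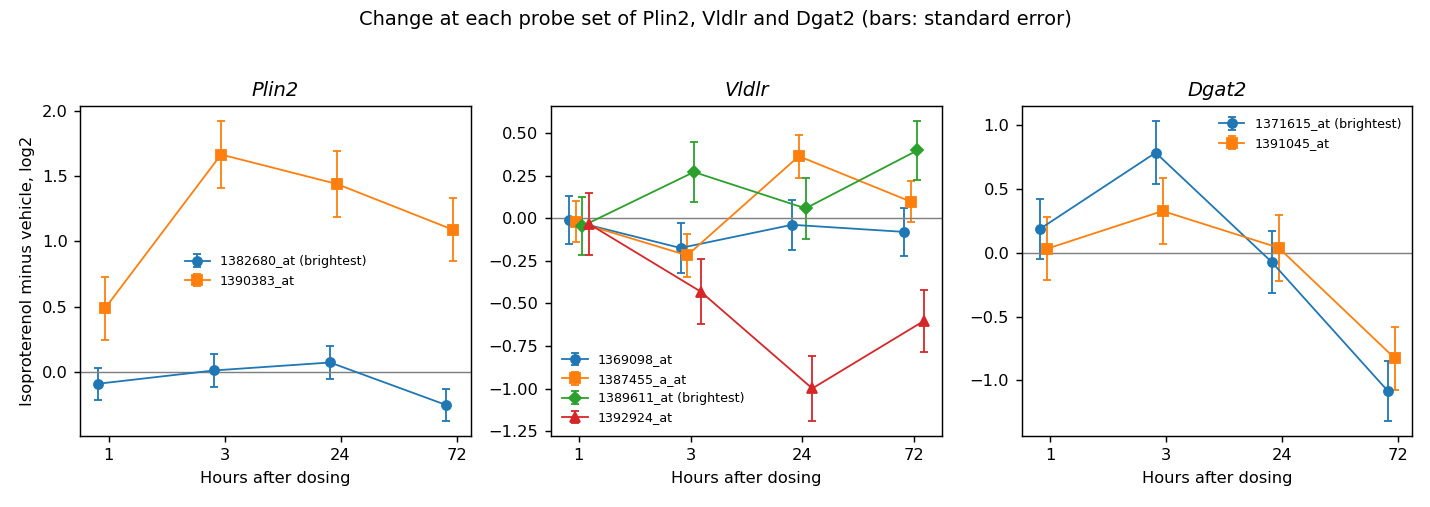
Isoproterenol minus vehicle log2 change with its standard error (y axis) by hours after dosing (x axis), for every probe set of Plin2, Vldlr and Dgat2. The Plin2 probe sets lie apart at all 4 times, most at 3 h, and those of Vldlr spread between -0.998 and 0.36 at 24 h. Those of Dgat2 lie further apart at 3 h (0.79 and 0.33) than at the other times.

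Cd36, the fatty acid uptake protein of the cell membrane, was lower at 72 h. Its probe set 1367689_a_at stood at 10.72, 9.32, 9.14, 10.31 and 10.41 in isoproterenol hearts, against 11.39, 10.85 and 11.22 in vehicle hearts. All isoproterenol arrays lay below all vehicle arrays, with replicate 1 the nearest to them. The change was -1.17 ± 0.26 (limma adjusted p = 0.00212), and -1.36 without isoproterenol replicate 1 (adjusted p = 0.000151). In whole tissue, fewer cells of a type and less RNA per cell cannot be told apart.

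At the earlier times Cd36 differed by -0.40 ± 0.26, -0.71 ± 0.27 and -0.59 ± 0.27 at 1, 3 and 24 h, and none of these passed (limma adjusted p = 0.579, 0.096 and 0.172). The 3 h change passed without vehicle replicate 3 (-0.91, adjusted p = 0.0458) and the 24 h change with array weights (-0.65, adjusted p = 0.0405). At 3 h Cd36 stood at 10.26, 10.64, 10.37 and 10.07 in isoproterenol hearts, against 10.87, 11.63 and 10.62 in vehicle hearts. The highest isoproterenol array lay just above the lowest vehicle array.

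Fabp3, the cytoplasmic fatty acid carrier, was slightly lower at 24 h. Its probe set 1367660_at stood at 12.87, 12.61, 13.08 and 12.79 in isoproterenol hearts, against 13.19, 13.16 and 13.18 in vehicle hearts. The groups did not overlap, and the isoproterenol arrays were more spread out. Fabp3 lies near the top of the common distribution, where quantile normalization gives arrays the same few values. For example, 13.16 recurs in the vehicle groups at 1, 24 and 72 h. How far this sets the small vehicle spread and the size of the change was not tested. The change was -0.34 ± 0.10 (limma adjusted p = 0.0276), a fall of 1.27-fold, and -0.42 without isoproterenol replicate 3 (adjusted p = 0.00394). The call was lost without isoproterenol replicate 2 or 4 or any vehicle replicate at that time (-0.35 to -0.27, adjusted p up to 0.134). It was also lost with no filter (adjusted p = 0.059), no intensity trend in the variance (adjusted p = 0.092) and no normalization (-0.05, adjusted p = 0.895).

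At 72 h Fabp3 stood at 13.03, 12.85, 12.52, 13.11 and 13.02 in isoproterenol hearts, against 13.15, 13.22 and 13.16 in vehicle hearts. The groups again did not overlap. The change of -0.27 ± 0.10 missed the threshold (limma adjusted p = 0.0577) and passed without isoproterenol replicate 1 (-0.31, adjusted p = 0.0276) or replicate 4 (-0.32, adjusted p = 0.0268). It also passed with median centring (-0.60, adjusted p = 0.00404), trimmed mean scaling (-0.55, adjusted p = 0.00302), 64 added (adjusted p = 0.0448) and array weights (-0.22, adjusted p = 0.0483). At 1 and 3 h it was 0.04 and -0.03.

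Dgat2, which adds the last fatty acid to make triglyceride, was higher at 3 h and lower at 72 h. At 3 h probe set 1371615_at stood at 7.95, 7.95, 7.73 and 8.46 in isoproterenol hearts, against 7.06, 6.92 and 7.72 in vehicle hearts. The lowest isoproterenol array was barely above the highest vehicle array. The change was 0.79 ± 0.25 (limma adjusted p = 0.0339), and the other probe set, 1391045_at, changed by 0.33 ± 0.26 (adjusted p = 0.473). The 3 h call was lost without isoproterenol replicate 2 (0.81, adjusted p = 0.0526) or 4 (0.64, adjusted p = 0.120), or vehicle replicate 1 (0.70, adjusted p = 0.134) or 2 (0.63, adjusted p = 0.178).

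At 72 h Dgat2 probe set 1371615_at stood at 6.29, 6.44, 6.07, 7.0 and 5.99 in isoproterenol hearts, against 7.39, 7.30 and 7.64 in vehicle hearts. Every isoproterenol array was lower. The change was -1.08 ± 0.24 (limma adjusted p = 0.00159), and -1.06 without isoproterenol replicate 1 (adjusted p = 0.0018). Probe set 1391045_at was also lower without overlap, at 5.86, 6.34, 5.72, 6.62 and 6.18 in isoproterenol hearts, against 6.92, 6.66 and 7.34 in vehicle hearts. Its change was -0.83 ± 0.25 (adjusted p = 0.0181) and lost its call without isoproterenol replicate 3 (-0.72, adjusted p = 0.061), vehicle replicate 1 (-0.86, adjusted p = 0.0557) or vehicle replicate 3 (-0.65, adjusted p = 0.148). It was -0.75 without isoproterenol replicate 1 (adjusted p = 0.031), and it lost its call with median centring (-0.69, adjusted p = 0.0766) and trimmed mean scaling (-0.65, adjusted p = 0.0906). At 1 and 24 h the changes of 1371615_at were 0.19 ± 0.24 and -0.07 ± 0.25. The effect of 1371615_at at 24 h minus that at 3 h was -0.86 (limma adjusted p = 0.136), and it was called without vehicle replicate 3 at 3 h (-1.11, adjusted p = 0.0477) and with array weights (-1.16, adjusted p = 0.0366).

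Plin5, the droplet coat protein of tissues that burn fat, was lower at 24 and 72 h. At 24 h its probe set 1381722_at stood at 8.12, 7.21, 8.50 and 7.37 in isoproterenol hearts, against 9.35, 8.84 and 9.22 in vehicle hearts. No isoproterenol array reached the vehicle range, and replicate 3 was the nearest. The change was -1.34 ± 0.30 (2.53-fold lower, limma adjusted p = 0.00351), and -1.57 without isoproterenol replicate 3 (adjusted p = 0.000438).

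At 72 h Plin5 stood at 9.19, 7.80, 7.06, 8.23 and 7.61 in isoproterenol hearts, against 9.24, 9.24 and 9.04 in vehicle hearts. Isoproterenol replicate 1 lay within the vehicle range and the other 4 lay below it. The change was -1.19 ± 0.29 (limma adjusted p = 0.00429), and -1.5 without isoproterenol replicate 1 (adjusted p = 2.8e-05). At 1 and 3 h Plin5 differed by 0.26 ± 0.29 and -0.09 ± 0.30, not called. The effect at 24 h minus that at 3 h was -1.24 ± 0.43 and did not pass (adjusted p = 0.0748), but passed without isoproterenol replicate 3 at 24 h (-1.48, adjusted p = 0.0217), with array weights (-1.28, adjusted p = 0.034) or with only the arrays compared (adjusted p = 0.0474).

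Plin2, the droplet coat protein found in most tissues, had a pair of probe sets that disagreed. The brighter, 1382680_at, changed by -0.09, 0.01, 0.07 and -0.25 at 1, 3, 24 and 72 h, with SE up to 0.13 and no call (lowest limma adjusted p = 0.155). At 72 h its isoproterenol arrays, at 9.92 to 10.03, all lay below the vehicle arrays, at 10.08 to 10.42. The dimmer, 1390383_at, stood at 10.01, 10.31, 10.16 and 10.34 in isoproterenol hearts at 3 h, against 8.55, 8.61 and 8.46 in vehicle hearts. Those groups were far apart, with a change of 1.66 ± 0.25 (3.17-fold, limma adjusted p = 2.14e-05).

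At 24 h the probe set 1390383_at of Plin2 stood at 10.09, 10.78, 9.16 and 10.20 in isoproterenol hearts, against 8.67, 8.53 and 8.67 in vehicle hearts. All isoproterenol arrays were higher, with a change of 1.44 ± 0.25 (limma adjusted p = 0.000331), and 1.74 without isoproterenol replicate 3 (adjusted p = 3.45e-06). At 72 h it stood at 8.68, 9.88, 10.21, 9.55 and 9.69 in isoproterenol hearts, against 8.49, 8.74 and 8.32 in vehicle hearts. Isoproterenol replicate 1 lay inside the vehicle range and the other 4 above it, and the change was 1.09 ± 0.24 (adjusted p = 0.00204), and 1.32 without isoproterenol replicate 1 (adjusted p = 2.37e-05). At 1 h the change was 0.49 ± 0.24, with no overlap and no call (adjusted p = 0.421), and it was called with only the arrays compared (adjusted p = 0.0195). Its effect at 3 h minus that at 1 h, 1.18 ± 0.35, did not pass (limma adjusted p = 0.119). It was called in 2 of 10 other settings, with array weights (1.19, adjusted p = 0.019) and with only the arrays compared (1.18, adjusted p = 0.00175). The rule of the brightest probe set therefore counts Plin2 as not called, and the rise rests on 1390383_at alone.

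Pnpla2, the lipase that starts triglyceride breakdown in the droplet, was not called at any time. At 72 h its probe set 1371697_at stood at 10.14, 9.10, 8.99, 9.83 and 9.61 in isoproterenol hearts, against 10.26, 9.67 and 10.25 in vehicle hearts. The groups overlapped. The change was -0.53 ± 0.21 (limma adjusted p = 0.0834), and it passed without isoproterenol replicate 1 (-0.68, adjusted p = 0.0131) or vehicle replicate 2 (-0.72, adjusted p = 0.0297), or with array weights (-0.64, adjusted p = 0.00551). At 1, 3 and 24 h the changes were -0.08 ± 0.21, -0.50 ± 0.22 and -0.24 ± 0.22, and only the 3 h arrays did not overlap (adjusted p = 0.150).

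**Figure D3:**
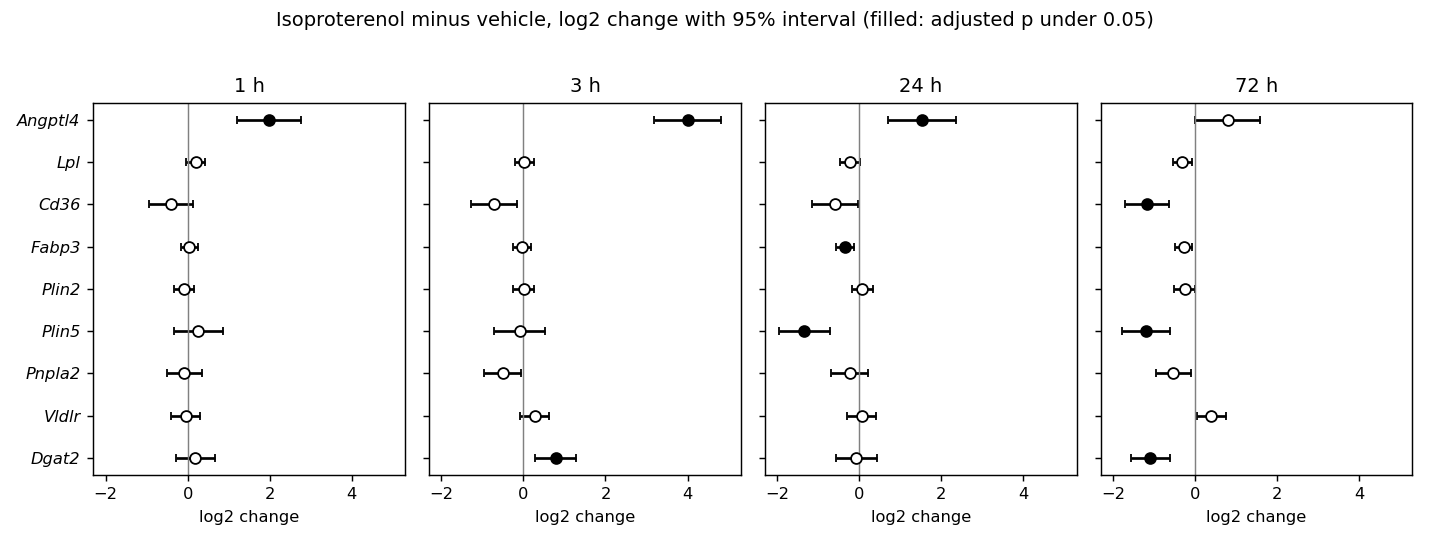
Isoproterenol minus vehicle log2 change with its 95% interval (x axis) for the brightest probe set of each of the 9 genes (rows) at 1, 3, 24 and 72 h (panels), with filled points where the limma adjusted p is under 0.05. Filled points lie right of 0 for Angptl4 at 1, 3 and 24 h and for Dgat2 at 3 h, and left of 0 for Fabp3 at 24 h, Plin5 at 24 and 72 h, and Cd36 and Dgat2 at 72 h.

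Without isoproterenol replicate 1, 6 of the 9 genes were called at 72 h, against 3 with it. Without vehicle replicate 2, 5 were called, and 4 without isoproterenol replicate 4. Isoproterenol replicate 1 was the array nearest the vehicle range for Lpl, Cd36 and Plin5 at that time, and its macrophage marker sum, given below, was the lowest of its group. For Dgat2 and Fabp3 the nearest array was replicate 4. At 24 h, 1 of the 9 genes was called without isoproterenol replicate 2 or vehicle replicate 1.

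The late falls depend on bringing the arrays to a common scale. Without normalization the median change of all probe sets was 0.47 at 24 h and 0.36 at 72 h, and no fall among the 9 genes passed the limma test. Plin5 then changed by -0.71 at 24 h (adjusted p = 0.238) and -0.56 at 72 h (adjusted p = 0.403), Cd36 by -0.71 at 72 h (adjusted p = 0.257) and Dgat2 1371615_at by -0.53 at 72 h (adjusted p = 0.355). Each was still negative beside a positive median. When the fit held just the arrays compared, Dgat2 at 3 h (adjusted p = 0.0801), Fabp3 at 24 h (adjusted p = 0.113) and Plin5 at 72 h (adjusted p = 0.0533) were not called, while Plin2 1390383_at at 1 h was (adjusted p = 0.0195).

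Among the vehicle hearts alone, none of the 14 probe sets passed the limma F test across the 4 times, beside 0.0562% of all genes. In that limma test 2 had an unadjusted p under 0.05, Angptl4 (adjusted p = 0.449) and Vldlr 1389611_at (adjusted p = 0.36). Isoproterenol means of Angptl4 were 7.92, 8.97, 6.52 and 5.54 at 1, 3, 24 and 72 h, beside vehicle means of 5.93, 4.97, 4.99 and 4.75. The limma F test of an isoproterenol effect at any time called 38.7% of all genes. By their brightest probe sets, it called Angptl4, Cd36, Fabp3, Plin5 and Dgat2 among the 9. Of the dimmer probe sets, this F test called Plin2 1390383_at (adjusted p = 3.09e-07) and Vldlr 1392924_at (adjusted p = 0.000207), but not Dgat2 1391045_at (adjusted p = 0.0713).

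Over the 8 group means, Fabp3 and Plin5 ran closest to each other among the 9 genes (Pearson r = 0.990), and Cd36 and Pnpla2 next (r = 0.928). These are descriptions over 8 points that share arrays and normalization. The genes outside the set whose group means were most like Angptl4 were Gadd45g (r = 0.988), Sfpq (0.982) and Gch1 (0.981), and those most like Cd36 were Suclg2 (0.992), Ube2g1 (0.980) and Trappc6b (0.976). Those most like Fabp3 were Prodh (0.994), Lims2 (0.992) and Slc6a17 (0.992), and those most like Plin5 were Adprhl1 (0.989), Lims2 (0.989) and Hbs1l (0.987). The gene most like Dgat2 was Dgat1 (0.979), the other enzyme of that last step, followed by Wdr18 (0.961) and G3bp1 (0.959). Dgat1 changed by 0.48 ± 0.18 at 3 h (limma adjusted p = 0.0856) and -0.46 ± 0.17 at 72 h (adjusted p = 0.066), and by 0.15 and -0.06 at 1 and 24 h. The 72 h change passed without isoproterenol replicate 1 (-0.52, adjusted p = 0.0307). Over 10 other settings it lay between -0.51 and 0.16, so its sign was not stable. It was called in 1 of them, with array weights (-0.51, limma adjusted p = 0.0134).

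The 5 lists of other lipid genes held 107 genes, of which 90 were tested. At 1, 3, 24 and 72 h, 4, 9, 14 and 20 of them were called higher and 3, 8, 10 and 14 lower. That is 4.44%, 10%, 15.6% and 22.2% higher and 3.33%, 8.89%, 11.1% and 15.6% lower, beside 2.37%, 6.94%, 10% and 13.3% of all genes higher and 1.04%, 6.33%, 7.19% and 8.71% lower. Their median change was 0.07, -0.04, 0.05 and -0.02.

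At 1 h the largest rise in these lists was Hilpda, a droplet protein that inhibits Pnpla2, at 2.11 ± 0.25 (limma adjusted p = 3.7e-07). Sdc4, a cell surface heparan sulfate proteoglycan, rose by 1.54 ± 0.20 (adjusted p = 2.84e-06), and Agpat4, an acyltransferase of glycerolipid synthesis, by 0.87 ± 0.22 (adjusted p = 0.0188). The largest falls were in G0s2, another inhibitor of Pnpla2, at -1.05 ± 0.27 (adjusted p = 0.0213), Mylip, a ubiquitin ligase for lipoprotein receptors, at -0.93 ± 0.21 (adjusted p = 0.00675), and Cav2, a caveolar protein, at -0.88 ± 0.24 (adjusted p = 0.0328). These 3 falls and Agpat4 depended on single arrays. Agpat4 lost its call without isoproterenol replicate 4 or vehicle replicate 1 or 2 (adjusted p up to 0.164), and G0s2 without isoproterenol replicate 3 or 5 or vehicle replicate 1 or 3 (up to 0.167). Mylip lost it without vehicle replicate 1 or 3 (up to 0.0937), and Cav2 without any of the 8 arrays except isoproterenol replicate 2 (up to 0.200). Between 2 and 7 of these genes were called over the arrays left out, with fewest without vehicle replicate 1. Agpat4 and Cav2 also lost their calls with median centring and trimmed mean scaling, and of the 6 only Hilpda kept its call without normalization.

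At 3 h Sdc4 rose by 1.77 ± 0.21 (limma adjusted p = 3.33e-07), Olr1, a scavenger receptor for oxidised lipoprotein, by 1.66 ± 0.33 (adjusted p = 0.000741), and Acsl4, which activates long-chain fatty acids, by 1.52 ± 0.21 (adjusted p = 4.34e-06). Scd2, a fatty acid desaturase, changed by -1.20 ± 0.20 (adjusted p = 8.48e-05), G0s2 by -0.93 ± 0.28 (adjusted p = 0.0265), and Fabp4, a fatty acid carrier of fat and endothelial cells, by -0.92 ± 0.24 (adjusted p = 0.00991). G0s2 lost its call without isoproterenol replicate 1, 2 or 4 or vehicle replicate 1 or 3 (adjusted p up to 0.0986), and Fabp4 without vehicle replicate 1 or 2 (up to 0.0688). Both lost it with median centring, trimmed mean scaling and no normalization, and Acsl4 lost it without normalization (adjusted p = 0.0592).

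At 24 h the largest rises were Apoc1, an apolipoprotein that slows lipoprotein clearance, at 1.55 ± 0.38 (limma adjusted p = 0.00561), Olr1 at 1.44 ± 0.33 (adjusted p = 0.00369) and Fabp5 at 1.42 ± 0.18 (adjusted p = 8.91e-06), a carrier of macrophages and epithelium among others. The largest falls were Acsl6, a fatty acid activating enzyme, at -1.45 ± 0.27 (adjusted p = 0.000487), Pcsk6, a proprotein convertase, at -1.44 ± 0.18 (adjusted p = 6.79e-06), and Ces1d, a carboxylesterase, at -1.08 ± 0.36 (adjusted p = 0.0424). Ces1d lost its call without any 1 of the arrays compared except isoproterenol replicate 3 (adjusted p up to 0.169), and with median centring or trimmed mean scaling. None of these 3 falls was called without normalization. Of these genes, 12 were called without isoproterenol replicate 2 and 13 without vehicle replicate 3, against 24 with all arrays.

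At 72 h Apoe, the apolipoprotein that binds lipoprotein receptors, rose by 2.74 ± 0.38 (limma adjusted p = 1.39e-05), Abca1, a cholesterol exporter, by 2.19 ± 0.30 (adjusted p = 1.25e-05), and Soat1, which esterifies cholesterol, by 1.69 ± 0.27 (adjusted p = 7.01e-05). Lpin1, a phosphatidate phosphatase, changed by -1.43 ± 0.25 (adjusted p = 0.00018), Fitm2, which takes part in droplet budding, by -1.36 ± 0.24 (adjusted p = 0.000227), and Gpihbp1, the capillary protein that holds lipoprotein lipase, by -1.26 ± 0.24 (adjusted p = 0.000554). None of these 3 falls was called without normalization (adjusted p from 0.163 to 0.295).

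By role, 1 of 23 tested genes of the droplet coat and lipolysis list was higher and 1 lower at 1 h, 1 and 2 at 3 h, none and 5 at 24 h, and 1 and 6 at 72 h. Its median change was -0.10, -0.23, -0.11 and -0.20 at these times. The balance of rises and falls moves with scaling: of all called probe sets, 56.2% and 52.6% were higher at 24 and 72 h, and 99.5% and 98.8% without normalization. Lipe, the hormone-sensitive lipase, and Mgll, the monoglyceride lipase, chosen after their values were seen, were both lower at 24 h (-0.61 ± 0.20, limma adjusted p = 0.0347, and -0.75 ± 0.20, adjusted p = 0.01) and at 72 h (-0.87 ± 0.19, adjusted p = 0.00144, and -0.88 ± 0.19, adjusted p = 0.00134). At 24 h Lipe lost its call without isoproterenol replicate 1, 2 or 4 or vehicle replicate 2 or 3 (adjusted p up to 0.131), and Mgll without vehicle replicate 3 (0.0561). With median centring and trimmed mean scaling neither was called at 24 h (Lipe -0.47 and -0.36, Mgll -0.61 and -0.50, adjusted p from 0.0916 to 0.202). At 72 h Mgll was not called with either (-0.60 and -0.56, adjusted p = 0.105 and 0.118), while Lipe was. Without normalization Lipe changed by 0.027 and -0.29, and Mgll by -0.12 and -0.25, at 24 and 72 h, with no call.

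Among 16 tested partners and inhibitors of lipoprotein lipase, 1, 1, 5 and 3 were higher and 0, 1, 1 and 1 lower at 1, 3, 24 and 72 h. Of 13 lipoprotein receptors and cholesterol transport genes, 0, 1, 1 and 6 were higher and 1, 0, 1 and 1 lower, with a median change of 0.57 at 72 h. Of 18 genes of fatty acid uptake, binding and activation, 1, 2, 4 and 4 were higher and 1, 3, 1 and 3 lower. Of 20 genes on the triglyceride synthesis list, 1, 4, 4 and 6 were higher and 0, 2, 2 and 3 lower. That list also holds genes that make or desaturate fatty acids or esterify cholesterol, among them Scd2 and Soat1. Of all genes, 2.37%, 6.94%, 10% and 13.3% were higher and 1.04%, 6.33%, 7.19% and 8.71% lower.

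**Figure D4:**
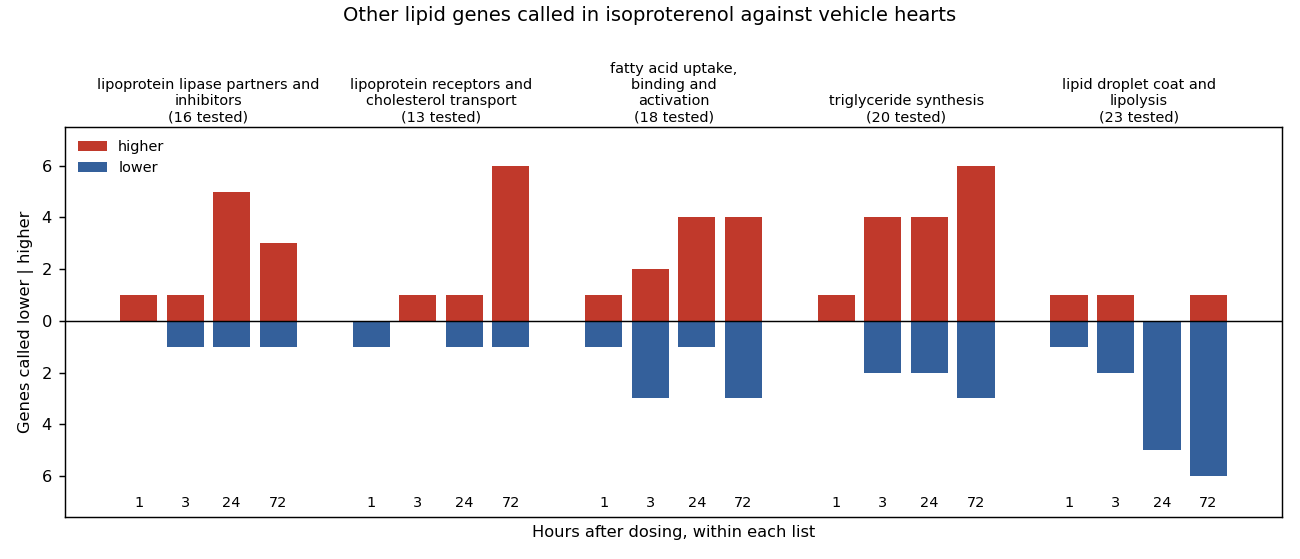
Number of genes called higher (red, above 0) or lower (blue, below 0) in isoproterenol against vehicle hearts (y axis) at 1, 3, 24 and 72 h within each of 5 lists (x axis), with the number tested above each list. The droplet coat and lipolysis list has 0 and 1 rises and 5 and 6 falls at 24 and 72 h, when 10% and 13.3% of all genes were higher and 7.19% and 8.71% lower, and the lipoprotein receptor and cholesterol transport list has 6 rises and 1 fall at 72 h.

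Some markers of other cells moved at the same times. Of 15 tested monocyte and macrophage markers, 10 were higher at 24 h and 14 at 72 h, with none lower, and 1 and 2 were higher at 1 and 3 h. Among all genes, 2.37%, 6.94%, 10% and 13.3% were higher at 1, 3, 24 and 72 h, and 1.04%, 6.33%, 7.19% and 8.71% lower. These shares stand beside the marker counts that follow too, several of which are single genes. Their summed level was 11093 to 21779 in isoproterenol hearts at 24 h, against 5406 to 6935 in vehicle hearts, and 7689 to 22975 in isoproterenol hearts at 72 h, against 5133 to 5715 in vehicle hearts. Its lowest values among isoproterenol arrays were replicate 3 at 24 h and replicate 1 at 72 h. Itgam was the only tested macrophage marker below the filter's intensity on average in vehicle hearts (4.67).

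Of 11 tested cardiomyocyte markers, 2 were lower at 24 h and none at 72 h. Their summed level was 81039 to 93366 in isoproterenol hearts at 24 h, against 97384 to 98843 in vehicle hearts. At 72 h it was 80405 to 96432 in isoproterenol hearts, against 95128 to 96289 in vehicle hearts. The ranges were apart at 24 h and overlapped at 72 h through isoproterenol replicate 1 alone. Of 9 endothelial markers, 1 was higher at 1 h, and 3, 1 and 1 were lower at 3, 24 and 72 h. Their sum at 3 h was 4725 to 5272 in isoproterenol hearts, against 5091 to 5775 in vehicle hearts, and the ranges overlapped. At 24 h their sum was 3930 to 4808 in isoproterenol hearts, against 5589 to 6089 in vehicle hearts. At 72 h their sum was 3545 to 6081 in isoproterenol hearts, against 4585 to 6238 in vehicle hearts. Those ranges overlapped through isoproterenol replicate 1 alone. Of 9 fibroblast markers, 7 were higher at 72 h, with a sum of 23233 to 58207 in isoproterenol hearts, against 14357 to 20477 in vehicle hearts.

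The adipocyte list had 6 of 10 genes tested, including Lipe and Pparg, which other cells also express. Of these 6, Pck1 was higher at 1 and 3 h, Cfd was higher at 72 h, and Lipe was lower at 24 and 72 h. Its sum was 325 to 488 in isoproterenol hearts at 1 h, against 279 to 306 in vehicle hearts, and 298 to 512 in isoproterenol hearts at 3 h, against 240 to 409 in vehicle hearts. It was 163 to 251 in isoproterenol hearts at 24 h, against 269 to 304 in vehicle hearts, and 231 to 498 in isoproterenol hearts at 72 h, against 280 to 353 in vehicle hearts. The isoproterenol arrays lay above the vehicle arrays at 1 h and below them at 24 h, and overlapped them at 3 and 72 h. The defining markers Adipoq, Plin1, Cidec and Lep lay below the filter's intensity on average in vehicle hearts. The skeletal muscle list had 6 of 8 genes tested, with 1 lower at 3 h and 1 higher and 1 lower at 72 h. The part of these cell types in the changes of the 9 genes was not tested. The log2 signal of the actin 3′ probe set minus the 5′ one, a sign of RNA quality, was 1.85 ± 0.18 in isoproterenol hearts at 1 h and 1.56 ± 0.03 in vehicle hearts (SD, n = 5 and 3). At 3 h it was 1.91 ± 0.13 in isoproterenol hearts and 1.28 ± 0.60 in vehicle hearts (SD, n = 4 and 3). It was 1.06 ± 0.21 in isoproterenol hearts at 24 h and 1.69 ± 0.23 in vehicle hearts (SD, n = 4 and 3), and 1.35 ± 0.22 in isoproterenol hearts and 1.35 ± 0.56 in vehicle hearts at 72 h (SD, n = 5 and 3). For GAPDH the same measure lay between 0.35 and 0.43 in all 8 groups. At 24 h it was 0.42 ± 0.07 in isoproterenol hearts and 0.35 ± 0.03 in vehicle hearts (SD, n = 4 and 3). The part of RNA quality in the changes was not tested either.

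**Figure D5:**
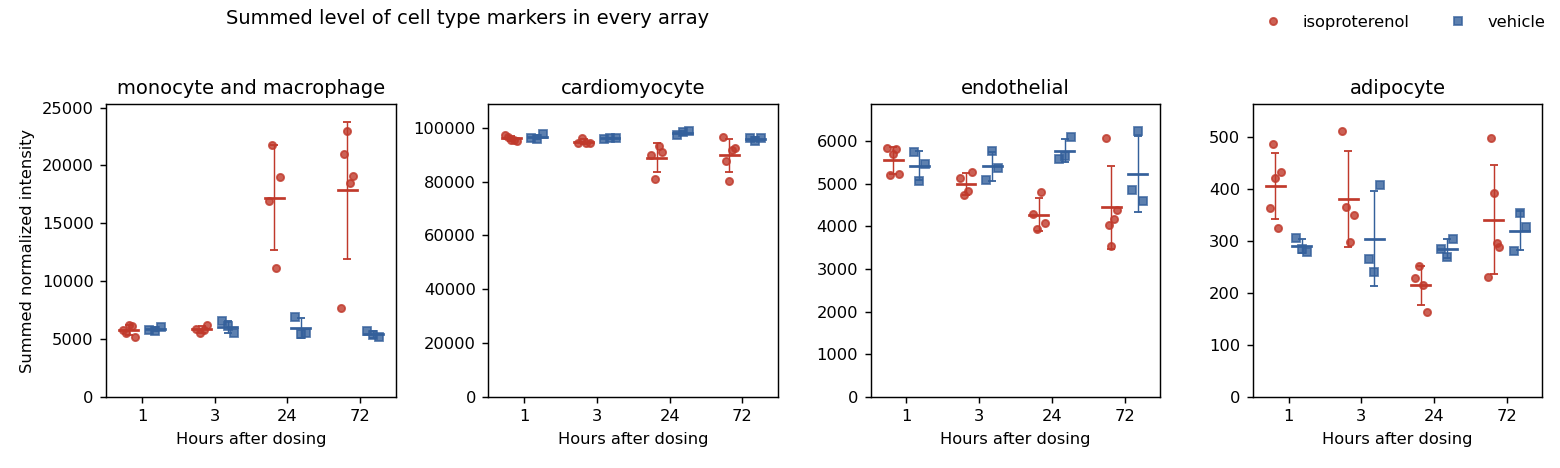
Summed normalized intensity of the tested monocyte and macrophage, cardiomyocyte, endothelial and adipocyte markers (y axis, from 0) by hours after dosing (x axis), with 1 point per array, isoproterenol as red circles left of vehicle as blue squares, and lines and bars for mean and SD. The macrophage sum is higher in all isoproterenol arrays at 24 and 72 h, and lowest among them in replicate 1 at 72 h (7689).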

How the data were processed

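The deposited table holds linear intensity values for 31099 probe sets on 30 arrays. Per the labels, biotinylated cRNA from 10 ug of total RNA was hybridised to 1-colour RAT230_2 arrays. The sources used here do not give the authors' probe summarisation or scaling. Probe sets were named by platform annotation updated through current gene records: 20826 had 1 gene, 436 several and 9780 were not listed. The 57 control probe sets were dropped, and those with a deposited intensity of at least 23, the 40th percentile, in 3 or more arrays were kept. Values were log2(intensity + 16), quantile normalized, and fitted with limma 3.58.1 in R 4.3.3 as 8 group means (22 residual degrees of freedom, prior variance following mean intensity), after a test on simulated data. Tests were two-sided, with Benjamini-Hochberg adjustment within each contrast. The number of arrays limits the precision.

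The members, lists and tests were chosen with earlier results of these data known. Named genes were all members, the 3 largest called rises and falls at each time over the 5 lists of other lipid genes, and for each called member the 3 genes with the most similar group means. Lipe and Mgll were added after their values were seen. Alternatives covered the added constant, filter, normalization, trend, array weights, replicate block, arrays in the fit and each array left out.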

Additional observations from a re-analysis of the deposited data

Results flagged for a closer look

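A sample far from the others was looked for in 56 groups of 4 or 5 arrays (14 probe sets in the 4 isoproterenol groups), and chance marks about 1 in 20. Only Vldlr 1387455_a_at at 3 h was marked. Isoproterenol replicate 2 stood at 9.37 there, beside 9.07 to 9.12 in the other 3, a gap of 0.838 of the group's range against a critical value of 0.829. The vehicle arrays stood at 9.33 to 9.47. The drug effect differed between 3 and 24 h for 2 probe sets. For Angptl4 the effect at 24 h minus that at 3 h was -2.48 ± 0.57 (limma adjusted p = 0.00742). For Vldlr 1387455_a_at it was 0.58 ± 0.18 (limma adjusted p = 0.0441), and this call was lost when any of 11 of the 14 arrays involved was left out, among them each vehicle array at 3 and 24 h (adjusted p up to 0.107). None of the other Vldlr probe sets was called in that contrast with all arrays, and 1392924_at was without isoproterenol replicate 3 at 24 h (-0.77, limma adjusted p = 0.036).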

How the results depend on the processing

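Of the changes of single probe sets, 1188 comparisons under other settings kept their direction and side of the threshold, 69 lost a call, 22 gained one and 1 reversed. With single arrays left out, 1185 stayed, 62 lost a call, 14 gained one and none reversed. Uncalled changes switched sign 49 and 45 times. The reversal was Lipe at 24 h without normalization (0.027). Another probe set in place of the brightest reversed Plin2 at 72 h (1.09 with 1390383_at), Vldlr at 24 and 72 h (-0.998 and -0.60 with 1392924_at) and the Vldlr effect at 24 h minus 3 h (0.58 with 1387455_a_at). The cause was not tested.

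Counts of called genes moved as follows, with all 9 members or 90 other lipid genes in the count. Without normalization 128, 303 and 1662 genes were called at 1, 3 and 72 h (425, 1652 and 2735 otherwise), 0 and 36 for the effects at 3 h minus 1 h and 72 h minus 24 h (91 and 338), 3092 at any time (4818) and 2 across vehicle times (7). Members called were then 1, 1 and 0 at 3, 24 and 72 h (2, 3 and 3), and other lipid genes 1, 3 and 20 at 1, 3 and 72 h (7, 17 and 34). Centring on array medians gave 6 members at 72 h, 4 other lipid genes at 1 h, and 690 and 220 genes for the effects at 24 h minus 3 h (1037) and 72 h minus 24 h. Trimmed mean scaling gave 6 members at 72 h, 4 other lipid genes at 1 h, 43 and 177 genes for the effects at 3 h minus 1 h and 72 h minus 24 h, and 3 across vehicle times. Across vehicle times 3 genes were called with no filter and 1 with no trend. Array weights gave 1017, 3414 and 4363 genes at 1, 24 and 72 h (2142 otherwise at 24 h), 314, 1832 and 1219 for the successive effects, 588 across vehicle times with 1 member (0 otherwise), 7 members at 72 h and 14 other lipid genes at 1 h. Fitting only the arrays compared gave 845, 868, 1396 and 1467 genes at the 4 times, 169, 662 and 84 for the successive effects, 1 member at 3 h, and 15 and 12 other lipid genes at 1 and 24 h.

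With the replicate number as a block, 1 member was called at 3 h, since Dgat2 was lost (0.73, limma adjusted p = 0.067), and 60 genes for the effect at 3 h minus 1 h. For same-numbered isoproterenol and vehicle arrays, correlations of their deviations from the group means lay between -0.0739 and 0.125. Of 12 pairs, 2 were over 0.1. Groups held 3 to 5 arrays and differently numbered pairs were not compared, so whether the numbers pair the samples is not settled.

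Leaving out 1 array at a time gave 277 to 407 genes at 1 h, 1147 to 1745 at 3 h, 1104 to 2965 at 24 h and 1556 to 3570 at 72 h. For successive effects it gave 40 to 124, 642 to 1636 and 130 to 675, for any time 4105 to 5286, and across vehicle times 0 to 54. Members called were 1 to 3 at 3 h, 1 to 3 at 24 h and 3 to 6 at 72 h, and other lipid genes 2 to 7, 13 to 18, 12 to 30 and 23 to 43 at the 4 times. The lowest 24 h count was without isoproterenol replicate 2 and the lowest 72 h count without vehicle replicate 1.

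The share of called probe sets that were higher was 69.2%, 53.6%, 56.2% and 52.6% at 1, 3, 24 and 72 h. It was 99.5% and 98.8% at 24 and 72 h without normalization, 67.3%, 68.4% and 76.8% at 3, 24 and 72 h with median centring, 83.5% and 80.8% at 24 and 72 h with trimmed mean scaling, and 54.3% at 1 h with array weights. Without normalization the median of all probe sets moved to -0.23, -0.19, 0.47 and 0.36. Signal over background limits Angptl4 in vehicle hearts.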
